A study of Arabidopsis thaliana with 30 samples.

Results

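The genes described here are 42 UDP-glycosyltransferases (UGTs) of Arabidopsis thaliana, measured in rosette leaves of Col0 wild type and of cat2, a mutant of a leaf catalase gene. They were chosen as the probe sets with exactly 1 annotated gene whose symbol starts with UGT and a digit. That rule gave 47 genes, and UGT73B1, UGT73B5, UGT73C1, UGT74D1 and UGT74B1 were then left out, a choice made with earlier results of these data known. The 42 remaining genes come from 13356 with an unshared probe set. Each had a single probe set, none carried the array's suffix for probes shared between genes, and all 42 matched a locus of the same symbol in RefSeq TAIR10.1. The counts below are therefore those of the family without these 5 genes.

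UGTs transfer a sugar from a UDP-sugar, usually UDP-glucose, to small molecules such as phenolic acids, flavonoids, hormones and foreign compounds. The sugar generally makes the molecule more soluble, changes its activity and allows it to be stored in the vacuole. In leaves, members of the family conjugate hydroxycinnamates, flavonols, salicylic acid, abscisic acid, auxins and cytokinins. UGT80B1 carries the family name but acts on membrane sterols.

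The series asked how CO2, day length and hydrogen peroxide interact. Plants of both genotypes grew in soil for 5 weeks at 3000 ppm CO2 with 8 h of light and 16 h of dark. Leaves were taken from plants still at 3000 ppm (hCO2) and from plants moved to air of 400 ppm CO2. The moved plants kept short days for 2 or 4 days (SD2, SD4) or were given long days of 16 h light and 8 h dark for as long (LD2, LD4). Each of the 10 groups had 3 biological replicates, each a pool of 2 leaves from different plants hybridised to 1 Affymetrix ATH1 array, and all leaves were taken 7 h into the light. The mutant carried the cat2-1 allele, and no other allele or agent was named for either genotype. A label of 300 ppm on the Col0 hCO2 arrays disagreed with the 3000 ppm of the growth protocol, which is followed here. Long days at 3000 ppm were not among the groups, so LD2 and LD4 against hCO2 change air and day length together.

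All values are log2 signals, on which 1 unit is a factor of 2. Differences are log2 differences with ± their standard error (n = 3 arrays per group). That error uses limma's estimate of spread pooled over all 10 groups, so it is not the spread of the arrays compared. A gene was called higher or lower where limma gave a Benjamini-Hochberg adjusted p below 0.05 over 22746 probe sets. Signals are compared within a probe set only, since the probes of different genes respond differently. Leaf RNA is a bulk sample, in which fewer cells of a type and less RNA per cell cannot be told apart. Arrays of a group correlated between 0.984 and 0.997 over all probe sets. By symbol, probe sets for a single gene existed for 7 of 60 listed cell type markers. RCA, the leaf Rubisco activase, lay between 13.87 and 14.20 on every array and LHCB4.1 of the leaf antenna between 13.91 and 14.15, while the root marker PYK10 stayed at or below 3.94 and the sperm cell histone MGH3 at or below 4.37. TUA1, listed with MGH3 for pollen, lay at 7.81 to 8.70, with Col0 means of 8.00 at SD2 and 8.54 at LD2 and no overlap of these arrays. FMA of guard cells lay at 6.46 to 7.59, with Col0 means of 7.05 at hCO2 and 6.59 at SD2, also without overlap. FDH was listed for epidermis and matched by its symbol alone. It moved most of the 7, from means of 10.83 in Col0 and 10.63 in cat2 at hCO2 to 11.94 and 11.95 at LD4. Whether this probe set measures the epidermal gene was not checked, so FDH below is not read as a sign of epidermal cells. The part of TUA1, FMA and FDH in the results was not tested. Phloem and seed storage markers could not be read.

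Across 25 comparisons 22 of the 42 genes (52.4%) were called at least once and 20 never, beside 53% of all probe sets called at least once, so the share in the family was near the background. UGT84A3 and UGT88A1 were called most often, in 10 comparisons each, followed by UGT76E11, UGT72B3 and UGT71B1 in 9 each. The group means of a gene spanned between 0.17 (UGT73C2) and 2.79 (UGT76E11), with a median span of 0.51, and 16 genes spanned over 1. Of the 18 genes with a mean signal below 5, close to the bottom of the array's scale, 4 were called at least once. Of the 24 brighter ones 18 were. The shares of all dim and of all brighter probe sets called are not given here, so these counts are not read as a trait of the family.

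**Figure D1:**
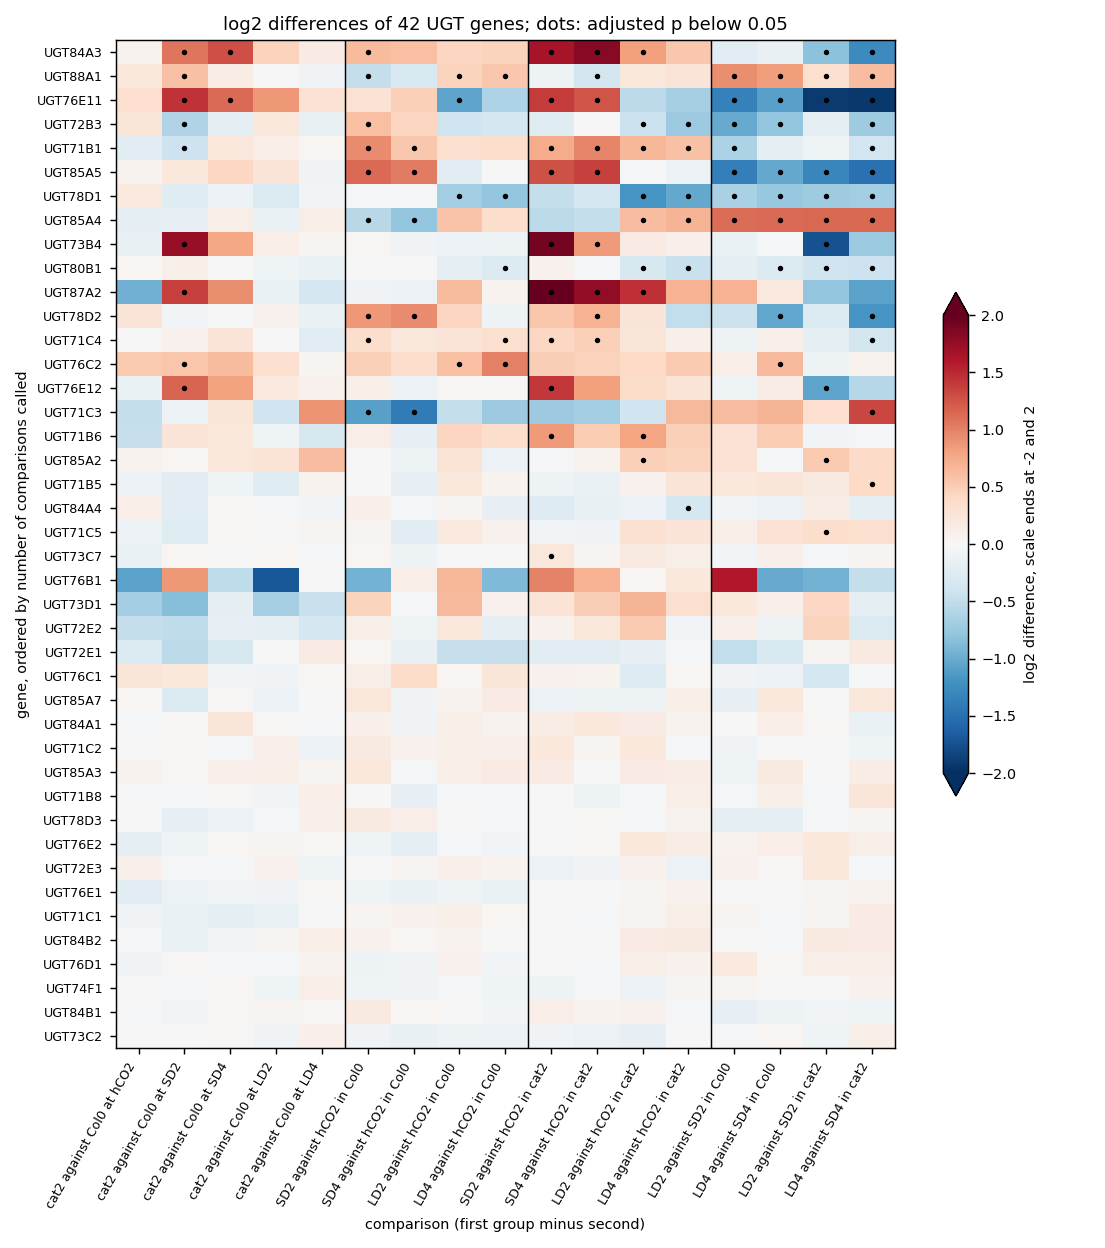
Heat map of the log2 difference (first group minus second, colour scale ending at −2 and 2) of each of the 42 UGT genes in 17 comparisons, with a dot where the adjusted p was below 0.05. The genes are ordered by the number of comparisons in which they were called, and the lowest 20 have no dot.

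Members were called between the genotypes in short-day air and in no other condition. At SD2, 7 of the 42 genes were higher in cat2 and 2 lower, where 6.62% of all probe sets were higher and 7.56% lower. The higher genes led with UGT73B4 (1.74 ± 0.25, adjusted p = 4.54e-05), UGT76E11 (1.44 ± 0.28, adjusted p = 0.00109), UGT87A2 (1.36 ± 0.40, adjusted p = 0.0235) and UGT76E12 (1.16 ± 0.28, adjusted p = 0.00699). UGT84A3 (1.08), UGT88A1 (0.59) and UGT76C2 (0.55) were also higher, while UGT72B3 (−0.61 ± 0.14, adjusted p = 0.00486) and UGT71B1 (−0.42 ± 0.12, adjusted p = 0.0241) were lower. The median difference over the 42 was −0.02, beside −0.04 over all probe sets. Without cat2 SD2 replicate 1 the count of 9 fell to 5, as UGT87A2, UGT76C2, UGT71B1 and UGT76E12 were no longer called (adjusted p from 0.0549 to 0.114). The 25S ribosomal control was 6.96 to 8.09 on the cat2 SD2 arrays and 6.24 to 7.13 on the Col0 SD2 arrays. With it as a covariate 7 genes were called, as UGT87A2 and UGT76C2 were lost. With the BioB spike-in control as a covariate 7 were called too, as UGT87A2 and UGT71B1 were lost. FDH was higher too in cat2, with means of 11.58 and 10.90 (its part in these differences was not tested).

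At SD4 the called genes were UGT84A3 (1.28 ± 0.20, adjusted p = 0.000208) and UGT76E11 (1.13 ± 0.28, adjusted p = 0.0332), 2 of 42 higher where 1.53% of all probe sets were higher and 1.69% called in all. The 25S control was again apart, at 7.37 to 8.56 in cat2 and 6.45 to 6.98 in Col0. With it as a covariate UGT76E11 was not called (0.66, adjusted p = 0.857), and UGT84A3 was. At hCO2, LD2 and LD4 no member was called, where 0.0132%, 1.15% and 0.725% of all probe sets were. Split by direction, those shares were 0.00879% higher and 0.0044% lower at hCO2, 0.541% and 0.607% at LD2, and 0.246% and 0.479% at LD4. By an unadjusted p below 0.05, 5, 3 and 3 members passed there, and with array weights 21, 1 and 0 were called. One cat2 hCO2 array took a weight of 25.9 in that fit, against 0.511 and 0.358 for its replicates. For cat2 against Col0 at SD4 and LD4, residuals of arrays with the same replicate number correlated by more than 0.1 in every pair. With the replicate number as a block the count at SD4 stayed at 2, and at LD4 UGT85A2 was called higher (0.62, limma adjusted p = 0.0475, against 0.0661 without the block).

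The move to air in short days raised 6 members and lowered 3 in Col0 at SD2, where 9.48% of all probe sets were higher and 10.5% lower (20% in all). The rises were UGT85A5 (1.14 ± 0.18, adjusted p = 0.0002), UGT71B1 (0.95 ± 0.12, adjusted p = 2.27e-05), UGT78D2 (0.86 ± 0.21, adjusted p = 0.0058), UGT84A3 (0.63), UGT72B3 (0.60) and UGT71C4 (0.34). The falls were UGT71C3 (−1.09 ± 0.31, adjusted p = 0.014), UGT85A4 (−0.56) and UGT88A1 (−0.48). At SD4 UGT85A5 (1.04), UGT78D2 (0.95) and UGT71B1 (0.54) were higher and UGT71C3 (−1.403) and UGT85A4 (−0.77) lower, beside 1.57% of all probe sets higher and 0.989% lower (2.55% in all). The calls of UGT71C3, UGT71C4, UGT84A3 and UGT85A4 at SD2 were each lost without some single array (adjusted p up to 0.236). The SD4 count of 5 was 1 without Col0 SD4 replicate 1 or without Col0 hCO2 replicate 1, and 2 without Col0 SD4 replicate 3. The BioB spike-in control lay at 7.73 to 7.96 on the Col0 hCO2 arrays, 8.14 to 8.37 at SD2 and 8.14 to 8.18 at SD4. Its part in the Col0 air calls was not tested. In cat2 the same move raised 10 members and lowered none at SD2, beside 7.57% of all probe sets higher and 10.1% lower. These 10 led with UGT87A2 (2.26 ± 0.40, adjusted p = 0.000239), UGT73B4 (1.91 ± 0.25, adjusted p = 7.23e-06), UGT84A3 (1.64 ± 0.20, adjusted p = 1.7e-06) and UGT76E12 (1.42 ± 0.28, adjusted p = 0.000891). UGT76E11 (1.39), UGT85A5 (1.27), UGT71B6 (0.85), UGT71B1 (0.75), UGT71C4 (0.42) and UGT73C7 (0.22) made up the rest. The UGT73C7 call was lost in 5 of 6 fits without 1 array (adjusted p up to 0.152). FDH had means of 11.58 at SD2 and 10.63 at hCO2 in cat2, and of 10.90 and 10.83 in Col0. The 25S control lay at 6.45 to 6.77 on the cat2 hCO2 arrays, 6.96 to 8.09 at SD2 and 7.37 to 8.56 at SD4. Its part in the cat2 air calls was not tested. At SD4 in cat2 8 members were higher and UGT88A1 (−0.37) was lower, beside 6.07% of all probe sets higher and 6.3% lower, of which UGT73B4, UGT78D2 and UGT88A1 were each lost without some single array (adjusted p up to 0.163). UGT71B1 and UGT85A5 were the members higher in all 4 of these comparisons, those of a genotype sharing its hCO2 arrays.

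After air together with long days 2 members were higher and 2 lower in Col0 at LD2, beside 6.04% and 5.43% of all probe sets, and 3 higher and 2 lower at LD4, beside 9.06% and 7.28%. In cat2 6 were higher and 3 lower at LD2, beside 8.96% and 11.2%, and 2 higher and 4 lower at LD4, beside 6.7% and 7.98%. Called in either direction were 11.5% and 16.3% of all probe sets in Col0 and 20.2% and 14.7% in cat2. FDH had means of 11.61 and 11.94 in Col0 and 11.82 and 11.95 in cat2 at LD2 and LD4, above its hCO2 means. BioB lay at 8.025 to 8.19 on the Col0 LD2 arrays, above all Col0 hCO2 arrays. In cat2 the 25S control lay at 7.18 to 7.40 at LD2 and 7.25 to 8.77 at LD4, above all cat2 hCO2 arrays. The part of these controls in the long-day air calls was not tested. UGT78D1 was lower in each of the 4 comparisons, by 0.70 to 1.18 on the log2 scale. Its Col0 call at LD2 was lost without Col0 LD2 replicate 1 or Col0 hCO2 replicate 2 (adjusted p up to 0.134). Its Col0 call at LD4 was lost without Col0 LD4 replicate 3 (adjusted p = 0.0599) and with only the arrays compared. In Col0 UGT76C2 (1.00 ± 0.18, adjusted p = 0.000416) and UGT88A1 (0.54 ± 0.09, adjusted p = 0.000266) led the rises at LD4. In cat2 the largest rise at LD2 was that of UGT87A2 (1.47 ± 0.40, adjusted p = 0.0107), lost without cat2 LD2 replicate 3 or cat2 hCO2 replicate 2 (adjusted p up to 0.0786). The Col0 count at LD2 was 2 without Col0 LD2 replicate 1 or replicate 3.

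Long days against short days in air gave 40 member calls over 4 comparisons, against 33 for short-day air and 24 for long-day air against hCO2. With array weights these totals were 43, 56 and 60. Of all probe sets, 11.8% to 16.1% were called in a day-length comparison, 2.55% to 20% for short-day air and 11.5% to 20.2% for long-day air. In Col0 2 members were higher and 5 lower at day 2, beside 6.1% and 5.67% of all probe sets (11.8% in all), and 3 higher and 6 lower at day 4, beside 7.11% and 6.35% (13.5%). In cat2 4 were higher and 7 lower at day 2, beside 8.76% and 7.36% (16.1%), and 4 higher and 9 lower at day 4, beside 5.51% and 6.25% (11.8%). Of the 18 members called at least once here, UGT85A4 and UGT88A1 were higher in all 4 comparisons and UGT76E11, UGT85A5 and UGT78D1 lower in all 4, and none was called both ways. The shares of all probe sets called in any or in all of the 4 are not given here. Calls of UGT78D1, of UGT76E11 in Col0 at day 4 and of UGT88A1 in cat2 at day 2 were lost without some single array, as given below. The cat2 day 2 count of 11 was 7 without cat2 LD2 replicate 1. FDH was higher as well in long days, with group means of 11.61 to 11.95 against 10.90 to 11.58 in short-day air (its part in these differences was not tested). At day 4 in Col0 the BioB control lay at 7.45 to 7.99 in long days and 8.14 to 8.18 in short days. Its part was not tested. Between day 4 and day 2 the call made was UGT73B4 in cat2 under short days (−1.05 ± 0.25, adjusted p = 0.0418), beside 0.778% of all probe sets lower and 0.95% called in all. It was not called without cat2 SD2 replicate 1 or 2 or cat2 SD4 replicate 2 or 3 (adjusted p from 0.148 to 0.39). By limma no member was called in Col0 in short days, in Col0 in long days or in cat2 in long days, beside 0.0484%, 1.94% and 1.7% of all probe sets, and 3, 4 and 7 members had an unadjusted p below 0.05. Array weights gave 1 call in Col0 in short days.

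Among the phenylpropanoid UGTs, UGT84A3 (AT4G15490), which forms glucose esters of hydroxycinnamates, was the member that differed between genotypes on both short-day dates. Its Col0 arrays read 7.91, 7.76 and 7.80 at hCO2, 8.33, 8.39 and 8.65 at SD2 and 8.42, 8.40 and 8.44 at SD4. Its cat2 arrays read 7.89, 7.70 and 8.08 at hCO2, 9.69, 9.68 and 9.23 at SD2 and 9.80, 9.65 and 9.66 at SD4. The genotypes thus overlapped at hCO2 and were fully apart in short-day air. In long days the Col0 arrays read 8.35, 8.30 and 8.11 at LD2 and 8.38, 8.63 and 7.79 at LD4, and the cat2 arrays 8.82, 8.47 and 8.85, and 8.91, 8.51 and 7.89. Long days lowered it in cat2 by 0.82 at day 2 and by 1.27 at day 4 (adjusted p = 0.00529 and 7.03e-05), whereas the Col0 differences of −0.20 and −0.16 were not called.

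The rise of UGT84A3 on transfer to air was larger in cat2 than in Col0 by 1.01 ± 0.28 at SD2 (adjusted p = 0.0312) and by 1.22 ± 0.28 at SD4 (adjusted p = 0.0301), by a test of the interaction. The SD2 interaction was not called in 8 of 12 fits that left out 1 array (adjusted p up to 0.0921), nor the SD4 one in 10 of 12 (up to 0.112). With 25S as a covariate neither interaction was called, nor was the SD2 one with BioB. The genotype differences of UGT84A3 at SD2 and SD4 were called in every fit that left out 1 array. The difference of the UGT84A3 day-length responses between genotypes was −0.62 ± 0.28 at day 2 and −1.11 ± 0.28 at day 4, with adjusted p = 0.198 and 0.0624. UGT84A1 and UGT84A4, of the same biochemical activity, lie on either side of it on the chromosome. Their genotype differences at SD2 were 0.02 and −0.23 and were not called, and UGT84A4 was called once, lower in cat2 at LD4 than at hCO2 (−0.34), which was lost in 4 of 6 fits without 1 array (adjusted p up to 0.232), with only the arrays compared and under median centring.

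UGT72B3 (AT1G01420), a homologue of the monolignol and xenobiotic conjugating UGT72B1, ran the opposite way between genotypes at SD2. In Col0 the arrays read 6.40, 6.02 and 6.60 at hCO2 and 6.70, 6.97 and 7.16 at SD2, and its cat2 arrays 6.60, 6.45 and 6.71 and then 6.33, 6.27 and 6.41. All 3 cat2 arrays at SD2 lay below the 3 Col0 arrays. At SD2 the air response differed between genotypes by −0.85 ± 0.20 (adjusted p = 0.0103) and the day-length response at day 2 by 0.83 ± 0.20 (adjusted p = 0.0108), both called in all 12 fits with 1 array left out. By SD4 the genotypes had means of 6.77 in Col0 and 6.57 in cat2 and were not called. Long days lowered it in Col0 by 1.01 at day 2 and 0.77 at day 4, and in cat2 by 0.72 at day 4. The monolignol glucosyltransferases UGT72E1, UGT72E2 and UGT72E3 and the hydroxycinnamate enzyme UGT84A1 were called in no comparison.

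**Figure D2:**
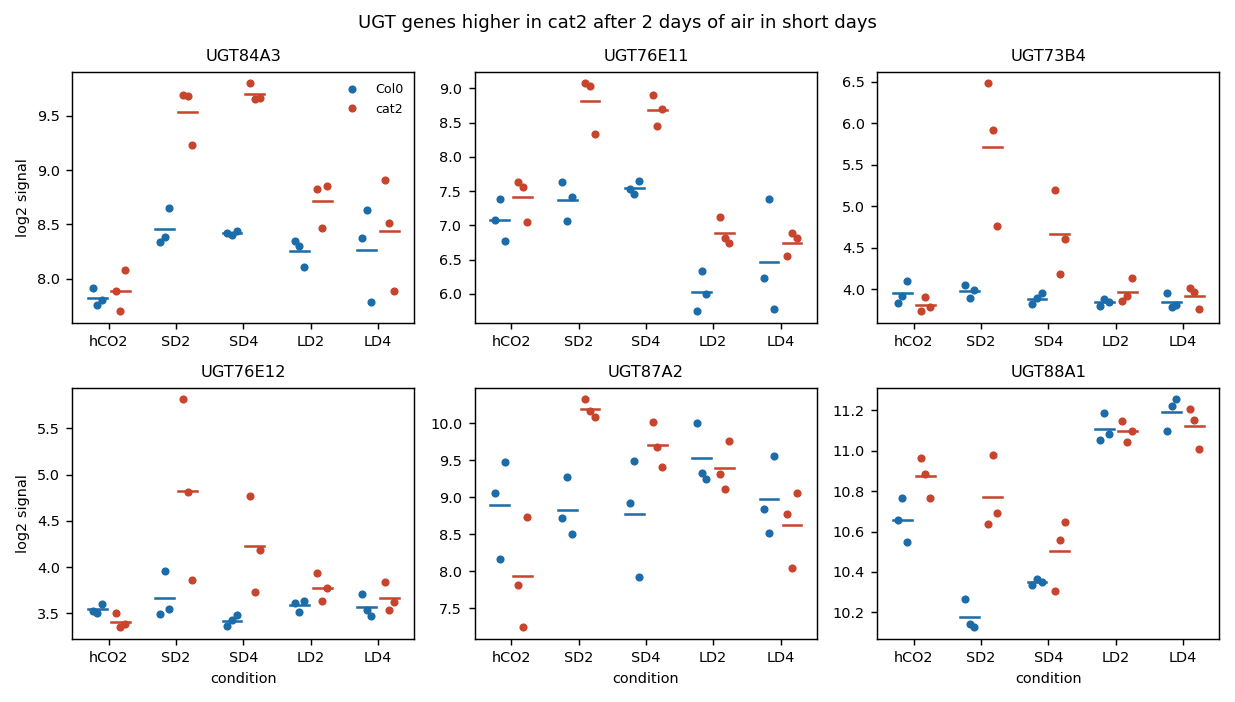
Log2 signal of 6 UGT genes called higher in cat2 at SD2, by condition, with a point for each array and a bar at the mean of 3 arrays (blue Col0, red cat2). UGT84A3 and UGT76E11 show separate genotypes at both SD2 and SD4, and UGT73B4 reaches 6.48 in 1 cat2 array while every Col0 array is below 4.14.

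Of the 4 flavonoid UGTs, 2 were lower in long days at day 2 and 3 at day 4, in each genotype, and none was higher. Of all probe sets, 5.67% and 6.35% were lower in Col0 and 7.36% and 6.25% in cat2. With 4 genes this describes single genes only, and several of the calls were lost in an alternative fit, as given below. UGT76E11 (AT3G46670), which can glucosylate flavonoids, spanned the widest range of the family, from a mean of 6.02 in Col0 at LD2 to 8.81 in cat2 at SD2. At SD2 its Col0 arrays read 7.64, 7.06 and 7.41 and its cat2 arrays 9.07, 9.03 and 8.34, and at SD4 7.54, 7.46 and 7.65 against 8.90, 8.45 and 8.69. In long days it read 5.74, 6.33 and 5.996 in Col0 and 7.12, 6.82 and 6.74 in cat2 at day 2, and 6.22, 7.39 and 5.78 against 6.55, 6.89 and 6.81 at day 4. The cat2 arrays were above all Col0 arrays at SD2, SD4 and LD2, although the LD2 difference of 0.87 was not called. Long days lowered it by 1.34 and 1.08 in Col0 and by 1.92 and 1.93 in cat2, at days 2 and 4. The Col0 day 4 call was lost without Col0 LD4 replicate 3 (−0.74, adjusted p = 0.0966) and with only the arrays compared. The SD4 genotype call was lost when any of Col0 SD4 replicates 1, 2 and 3 or cat2 SD4 replicates 1 and 3 was left out (adjusted p from 0.0694 to 0.166). The interaction of genotype and air was 1.102 ± 0.40 at SD2 (adjusted p = 0.106).

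UGT78D1 (AT1G30530), the flavonol 3-O-rhamnosyltransferase, was lower in long days in both genotypes, by 0.65 and 0.75 in Col0 and by 0.71 and 0.69 in cat2 at days 2 and 4. Col0 arrays read 9.17, 8.47 and 8.64 at SD2 and 7.80, 8.25 and 8.27 at LD2, and its cat2 arrays 8.49, 8.49 and 8.59 and 7.69, 7.97 and 7.77. At day 2 the day lengths did not overlap within a genotype. All 4 of these calls were lost in at least 1 fit without a single array (adjusted p up to 0.199), and the sign was kept in each.

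UGT78D2 (AT5G17050), the flavonoid 3-O-glucosyltransferase that also acts on anthocyanidins, was raised by short-day air in Col0. It was lower in long days at day 4 in both genotypes. The Col0 rise at SD4 was lost without Col0 SD4 replicate 1 or Col0 hCO2 replicate 1 (adjusted p up to 0.104). It was also lost with only the arrays compared. In cat2 its rise was not called at SD2 (0.55, adjusted p = 0.0759), and its call at SD4 (0.69) was lost in 5 of 6 fits without 1 array (adjusted p up to 0.109). Its Col0 arrays read 6.93, 7.28 and 7.26 at hCO2, 8.69, 7.67 and 7.95 at SD4 and 7.24, 7.01 and 6.93 at LD4. In cat2 the arrays read 7.70, 7.40 and 7.14, then 8.21, 8.12 and 7.99, and 7.05, 6.94 and 6.80. At LD4 every array lay below every SD4 array, with differences of −1.05 ± 0.21 in Col0 (adjusted p = 0.00132) and −1.18 ± 0.21 in cat2 (adjusted p = 0.000353). The Col0 call was lost with only the arrays compared. UGT78D2 was called between genotypes in no condition. UGT78D3, the flavonol 3-O-arabinosyltransferase, had a mean signal of 4.35 and was never called.

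**Figure D3:**
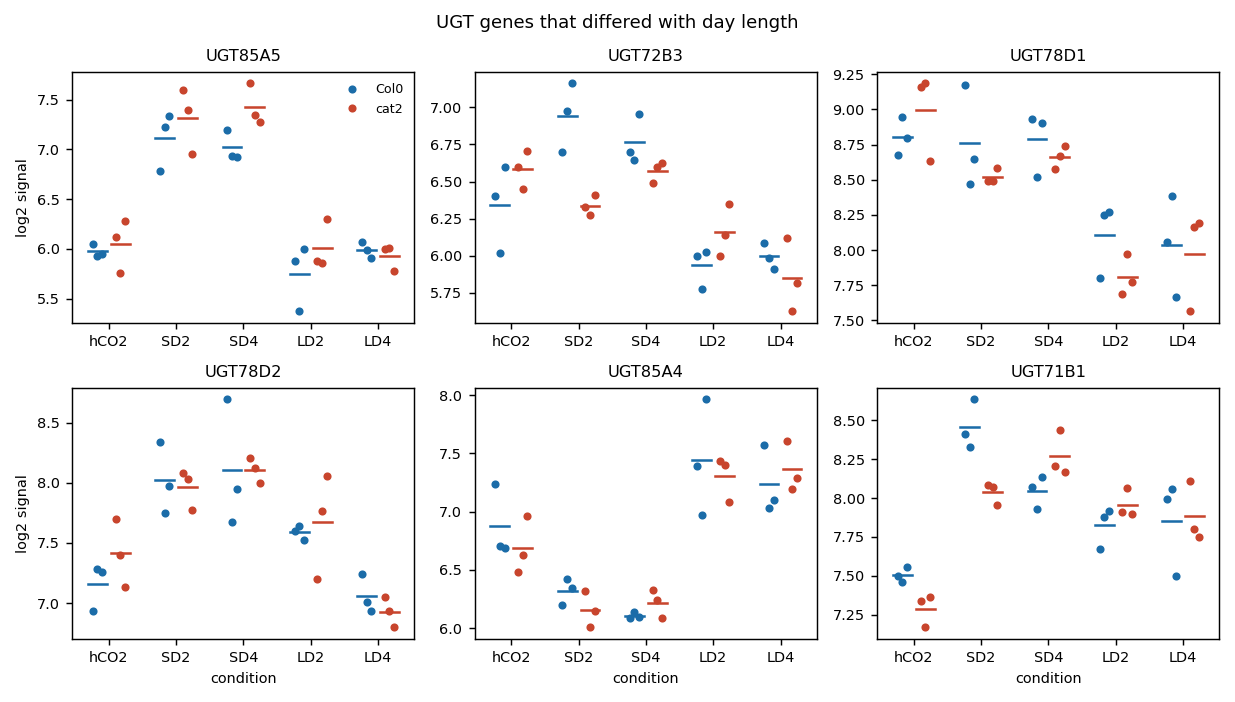
Log2 signal of 6 UGT genes called between long and short days, by condition, with a point for each array and a bar at the mean of 3 arrays (blue Col0, red cat2). UGT85A5 stands between 6.78 and 7.66 in short-day air and at or below 6.30 elsewhere, and UGT85A4 is higher in both long-day conditions.

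Of the hormone UGTs, UGT76C2 (AT5G05860), which N-glucosylates cytokinins, was higher in cat2 at SD2, with Col0 arrays at 6.62, 6.16 and 6.54 and cat2 arrays at 7.00, 7.16 and 6.82. That call (0.55 ± 0.18, adjusted p = 0.0425) was lost without Col0 SD2 replicate 2 or 3 or cat2 SD2 replicate 1 or 2 (adjusted p from 0.0609 to 0.222). It was also lost under median centring and with 25S as a covariate. At hCO2 and SD4 cat2 was above Col0 by 0.53 and 0.63, neither called. Its neighbour UGT76C1, of the same activity, was never called. UGT71B6, which glucosylates abscisic acid, was higher in cat2 at SD2 (0.85) and LD2 (0.79) than at hCO2, and UGT71C5, also an abscisic acid glucosyltransferase, was higher in cat2 at LD2 than at SD2 (0.35), a call lost in 5 of 6 fits without 1 array (adjusted p up to 0.164). UGT71B8, a close homologue of UGT71B6, was never called. The auxin glucosyltransferase UGT84B1 and its homologue UGT84B2 had means of 4.05 and 3.90 and no call.

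Of 4 salicylate and benzoate UGTs 1 was called in any comparison, beside the 53% of all probe sets. UGT71C3 (AT1G07260), which glucosylates methyl salicylate, was lower in Col0 in short-day air than at hCO2, by 1.09 and 1.403 on days 2 and 4. In cat2 it was higher at LD4, with arrays at 6.80, 5.64 and 5.53, than at SD4, with arrays at 4.96, 4.55 and 4.43 (1.34 ± 0.31, adjusted p = 0.00399). The genotypes differed by 0.90 ± 0.31 at LD4, which was not called (adjusted p = 0.211). Both Col0 falls were lost without Col0 hCO2 replicate 1, the highest of that group at 6.39 (−0.80, adjusted p = 0.101, and −1.11, adjusted p = 0.0906). Leaving out Col0 SD2 replicate 3, or Col0 SD4 replicate 1 or 3, also ended the call of that day. UGT74F1 and UGT76D1, which act on salicylic acid and dihydroxybenzoic acids, spanned 0.18 and 0.19 over the 10 group means and were never called.

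UGT76B1 (AT3G11340), which conjugates isoleucic acid, salicylic acid and N-hydroxypipecolic acid, was named here after its values were seen, since it varied most between arrays of a group (pooled SD 0.88). In Col0 the arrays read 5.17, 4.89 and 6.87 at hCO2, 4.62, 4.84 and 4.63 at SD2, 4.90, 8.07 and 4.34 at SD4, 7.73, 6.01 and 5.17 at LD2 and 4.83, 4.51 and 4.96 at LD4. Its cat2 arrays read 4.21, 4.64 and 4.85 at hCO2, 5.61, 6.01 and 5.05 at SD2, 5.48, 5.70 and 4.59 at SD4, 4.56, 4.63 and 4.63 at LD2 and 4.88, 4.52 and 4.93 at LD4. Single Col0 leaf pools thus held the highest values, at SD4, LD2 and hCO2. At SD2 all cat2 arrays exceeded all Col0 arrays, by 0.86 ± 0.66 (adjusted p = 0.436), and of 13 alternatives it was called in 1, when the 6 arrays were fitted alone (adjusted p = 0.0332). At LD2 all cat2 arrays lay below all Col0 arrays (−1.70 ± 0.66, adjusted p = 0.264). UGT73D1, for which no role is given here, had the next widest spread (pooled SD 0.65) and its Col0 mean was above that of cat2 in all 5 conditions, by 0.17 to 0.86, with no call.

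**Figure D4:**
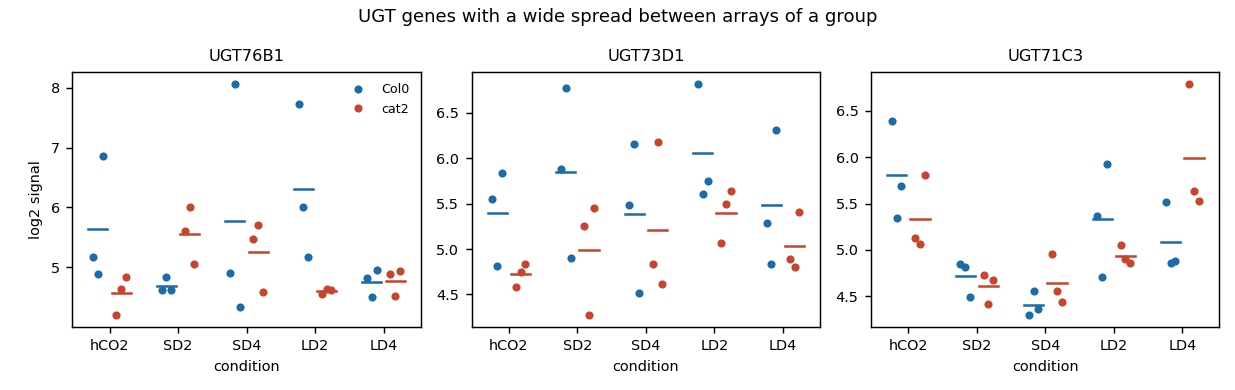
Log2 signal of UGT76B1, UGT73D1 and UGT71C3 by condition, with a point for each array and a bar at the mean of 3 arrays (blue Col0, red cat2). Single Col0 arrays of UGT76B1 reach 8.07 at SD4 and 7.73 at LD2, far from the other arrays of their groups.

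UGT87A2 (AT2G30140), which influences flowering time, showed the largest rise of the members in cat2 at SD2, and at SD4 (1.77) stood beside UGT84A3 (1.81). In cat2 the arrays read 7.81, 7.24 and 8.74 at hCO2, 10.33, 10.17 and 10.09 at SD2 and 10.02, 9.68 and 9.42 at SD4. Col0 arrays read 9.05, 8.17 and 9.47, then 8.72, 9.28 and 8.504, and 8.92, 9.497 and 7.93, and showed no call in air. Every cat2 array at SD2 was above every Col0 array there, while at hCO2 the cat2 mean was 0.97 below that of Col0 (adjusted p = 0.656). The interaction of genotype and air was 2.33 ± 0.56 at SD2 (adjusted p = 0.0133) and 1.89 ± 0.56 at SD4 (adjusted p = 0.176). The SD2 interaction was not called without cat2 hCO2 replicate 2 (1.98, adjusted p = 0.0527), nor with BioB as a covariate. The genotype difference at SD2 was lost without Col0 replicate 1 or 3 or cat2 replicate 1 or 2 (adjusted p from 0.0632 to 0.0897). It was also lost with BioB or with 25S as a covariate. UGT80B1 (AT1G43620), the sterol glucosyltransferase, was lower in long days by small amounts in cat2 on both days. Its cat2 arrays read 8.79, 8.65 and 8.72 at SD2 and 8.34, 8.39 and 8.23 at LD2 (−0.40 ± 0.08, adjusted p = 0.000803). In Col0 it was not called at day 2 (−0.20, adjusted p = 0.106). The Col0 call at day 4 (−0.28, adjusted p = 0.0162) was lost without Col0 SD4 replicate 1 or Col0 LD4 replicate 3, and with only the arrays compared.

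The remaining frequent calls were in genes for which no substrate is given here. UGT73B4 (AT2G15490) was near the bottom of the scale outside short-day air in cat2. Its Col0 arrays read 4.05, 3.90 and 4.00 at SD2 and 3.82, 3.89 and 3.95 at SD4, and its cat2 arrays 6.48, 5.91 and 4.76 and then 5.19, 4.19 and 4.61. The cat2 arrays at hCO2, LD2 and LD4 lay between 3.73 and 4.14, and no Col0 array exceeded 4.14 in any condition. The interaction with air at SD2 was 1.88 ± 0.36 (adjusted p = 0.00195) and with day length at day 2 −1.61 ± 0.36 (adjusted p = 0.00671), both called in all 12 fits with 1 array left out. UGT76E12 overlapped between genotypes, with cat2 SD2 arrays at 5.81, 4.81 and 3.85 and Col0 arrays at 3.496, 3.95 and 3.55. Without cat2 SD2 replicate 1 its difference was 0.67 (adjusted p = 0.072). All 3 calls of UGT76E12 were lost with only the arrays compared. The SDs at SD2 were 0.88 in cat2 and 0.08 in Col0 for UGT73B4, and 0.98 and 0.25 for UGT76E12. In both genes cat2 SD2 replicate 1 was the highest of its group and replicate 3 the lowest, as they also were for UGT76E11 and UGT84A3.

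UGT88A1 (AT3G16520) separated the conditions in Col0, while in cat2 its SD2 arrays overlapped those of hCO2. In Col0 the arrays read 10.66, 10.76 and 10.55 at hCO2, 10.27, 10.14 and 10.13 at SD2, 10.34, 10.37 and 10.35 at SD4, 11.05, 11.19 and 11.08 at LD2 and 11.10, 11.22 and 11.26 at LD4. Its cat2 arrays read 10.96, 10.89 and 10.77, then 10.64, 10.98 and 10.69, then 10.30, 10.56 and 10.65, and 11.15, 11.05 and 11.10, and 11.21, 11.15 and 11.01. In Col0 the order was short-day air below hCO2 below long days, with no overlap. At SD2 cat2 was above Col0 by 0.59 ± 0.09 (adjusted p = 0.000101). Long days raised it by 0.93 in Col0 and 0.33 in cat2 at day 2, and these responses differed by −0.60 ± 0.13 (adjusted p = 0.00518), although the cat2 rise at day 2 was itself lost in 3 of 6 fits without 1 array (adjusted p up to 0.109).

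UGT85A5 (AT1G22370) was high in short-day air and at one level elsewhere, in both genotypes. Col0 arrays read 6.05, 5.93 and 5.95 at hCO2, 6.78, 7.22 and 7.34 at SD2, 7.20, 6.94 and 6.92 at SD4, 5.87, 5.37 and 5.998 at LD2 and 6.07, 5.99 and 5.91 at LD4. In cat2 the arrays read 6.12, 5.75 and 6.28, then 7.60, 7.40 and 6.96, then 7.66, 7.35 and 7.27, and 5.87, 5.86 and 6.30, and 5.996, 6.01 and 5.78. Short-day air was apart from all other conditions, and no genotype difference was called. In long days it was lower than in short days by 1.37 and 1.03 in Col0 and by 1.31 and 1.4998 in cat2. All 8 of its calls held in every fit that left out 1 array.

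UGT85A4 (AT1G78270) ran the other way. Its Col0 arrays read 6.1996, 6.42 and 6.35 at SD2 and 7.39, 6.97 and 7.97 at LD2, and its cat2 arrays 6.31, 6.01 and 6.15 and then 7.43, 7.40 and 7.08. The 4 day-length differences lay between 1.12 and 1.15, each with a standard error of 0.19. UGT71B1 (AT3G21750) was higher in short-day air than at hCO2 in both genotypes. Its Col0 arrays read 7.50, 7.46 and 7.55 at hCO2, 8.41, 8.33 and 8.63 at SD2 and 8.07, 7.93 and 8.13 at SD4. Its cat2 arrays read 7.34, 7.17 and 7.36, then 8.09, 8.07 and 7.96, and 8.21, 8.43 and 8.17. The Col0 rise at SD4 was lost in 4 of 6 fits without 1 array (adjusted p up to 0.0873). Against hCO2, LD2 and LD4 were called higher in cat2 (0.67 and 0.59) and not called in Col0 (0.32 and 0.35). Long days lowered UGT71B1 in Col0 at day 2 (−0.63) and in cat2 at day 4. That cat2 call was lost in 5 of 6 fits without 1 array (adjusted p up to 0.196). The lower value of cat2 at SD2 was lost without Col0 SD2 replicate 3 or any single cat2 SD2 replicate (adjusted p from 0.0549 to 0.118). It was also lost with BioB as a covariate.

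The 20 members with no call were mostly dim, 14 of them with a mean below 5. Leaving aside UGT76B1 and UGT73D1, the largest absolute difference of each of the other 18 in any comparison lay between 0.16 (UGT73C2) and 0.58 (UGT72E2). A probe set near the bottom of the scale can hide a difference, so no level of change is stated for them.

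Many members lie next to each other in the genome, and neighbours did not share one pattern. With at most 1 gene between them 26 members formed 19 neighbouring pairs. Over the 10 group means, points that share arrays and conditions, the correlation of these pairs ran from −0.74 (UGT71C3 and UGT71C4) to 0.74 (UGT76E11 and UGT76E12), with a median of 0.02. The median over all 861 pairs of members was 0.02 as well, and over the 99 pairs of the same subfamily 0.10. The most alike pair was UGT73B4 and UGT76E12 (0.98), of different subfamilies. UGT85A5 stands among UGT85A7, UGT85A2 and UGT85A3, of which UGT85A2 alone was called with day length, higher in cat2 at day 2 (0.52), and that call was lost in 5 of 6 fits without 1 array (adjusted p up to 0.101). Whether probes of near-identical neighbours share signal was not tested.

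Of 127 symbols in 6 lists of related pathways, 11 could be read from an unshared probe set. ALDH2C4, whose enzyme makes sinapic and ferulic acid, was lower than at hCO2 in Col0 at SD2 (−0.97), SD4 (−0.70) and LD4 (−1.06) and in cat2 at SD4 (−0.66) and LD4 (−0.65). DFR, an anthocyanin synthesis enzyme, was higher in Col0 at LD2 than at hCO2 (2.84) and lower at LD4 than at SD4 (−3.34). BGLU33, a beta-glucosidase, was higher in cat2 than in Col0 at SD2 (1.11) and below hCO2 in Col0 at SD2 (−0.82) and LD2 (−1.05) and in cat2 at SD4 (−0.85), LD2 (−2.03) and LD4 (−1.27). USP, which forms UDP-sugars, was lower in cat2 at LD2 (−0.51) and LD4 (−0.35) than at hCO2. WRKY6, a stress-induced transcription factor, was higher in cat2 at SD2 (2.43) and SD4 (1.37), and in cat2 its rise over hCO2 ran from 0.98 at LD4 to 3.28 at SD2. CCR2, of monolignol synthesis, rose in cat2 at SD2 (0.45). Both salicylate genes that could be read had no call. With 1 to 3 measured genes a list, these describe single genes only.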

How the data were processed

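The authors deposited log2 signals of 22810 probe sets on 30 arrays. The submitters' processing notes name RMA and affy, and their versions are not given in the sources used here. RMA draws arrays to a shared distribution, so a change in total RNA would not show. Without 64 controls, 22746 probe sets were tested as deposited. Of these 13513 had exactly 1 gene in the platform annotation. All 30 arrays entered 1 limma fit (version 3.58.1, R 4.3.3) of 10 group means, from which 25 comparisons were drawn with Benjamini-Hochberg adjustment within each.

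Members, lists and roles were chosen with earlier results of these data known. Full statistics are given for up to 4 called members a direction, array values for the 12 members called most often, and a few others were named after their values were seen. Alternatives were a replicate block, only the arrays compared, median centring, a filter at mean 5, array weights and single arrays left out. BioB and 25S covariates were chosen after seeing the data, and were fitted only for the genotype comparisons and the air interactions. Replicate numbers were checked for pairing by the correlation of residuals, above 0.1 in every pair for 2 of 21 comparisons. The fit was tested on simulated data. Signal over background and 3 arrays per group limit the precision. No columns were identical, and no sequences were used here. Python 3.11.15, pandas 2.3.3 and matplotlib 3.10.9 made the summaries and plots.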

Additional observations from a re-analysis of the deposited data

Results flagged for a closer look

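The responses of 5 members differed between the genotypes by an interaction test. On transfer to air in short days at day 2, the difference of responses (cat2 minus Col0) was 2.33 for UGT87A2, 1.88 for UGT73B4, 1.01 for UGT84A3 and −0.85 for UGT72B3, 4 of 42 members beside 6.01% of all probe sets. At day 4 it was 1.22 for UGT84A3, beside 0.892% of all probe sets. For long against short days at day 2 it was 0.83 for UGT72B3, −0.60 for UGT88A1 and −1.61 for UGT73B4, beside 7.72% of all probe sets. The air and day-length interactions of day 2 share their SD2 arrays. The UGT84A3 interactions were lost in 8 of 12 fits without 1 array at SD2 and in 10 of 12 at SD4. Both were lost with 25S as a covariate, and the SD2 one with BioB. That of UGT87A2 was lost without cat2 hCO2 replicate 2 and with BioB.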

How the results depend on the processing

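Of 117 member calls 67 held under every alternative tried for that call, and none changed sign under any of them. The BioB and 25S covariates were each tried for 16 of the 117 calls only, of which 4 and 5 were lost. The filter for dim probe sets was tried for 105. The count of called members was moved by over 1.5 times as follows. With array weights, where 1 cat2 hCO2 array dominated, it was 21 for cat2 against Col0 at hCO2 (0 otherwise), 4 at SD4 (2) and 1 at LD2 (0). It was 8 for SD4 (5) and 10 for LD2 (4) against hCO2 in Col0, and 23, 14, 25 and 20 for SD2, SD4, LD2 and LD4 against hCO2 in cat2 (10, 9, 9, 6). It was 1 for SD4 against SD2 in Col0 (0), 9 and 5 for the air interactions at SD2 and SD4 (4, 1), and 5 and 1 for the day-length interactions at days 2 and 4 (3, 0). With only the arrays compared it was 3 and 2 for SD4 and LD4 against hCO2 in Col0 (5, 5), 5 for LD4 against SD4 in Col0 (9), 0 for SD4 against SD2 in cat2 (1) and 6 for the day-length interaction at day 2 (3). Without dim probe sets it was 0 for SD4 against SD2 in cat2, since UGT73B4 itself was removed, and 1 for the day-length interaction at day 4 (0). The replicate block gave 1 at LD4 between genotypes (0) and lost none of the 117 calls. With the BioB covariate the air interaction at SD2 gave 2 (4), and with 25S the air interaction at SD4 gave 0 (1) and cat2 against Col0 at SD4 gave 1 (2).

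With single arrays left out the count ranged from 5 to 8 for cat2 against Col0 at SD2, from 1 to 2 at SD4 and from 0 to 1 at LD4. It ranged from 1 to 5 for SD4 and from 2 to 4 for LD2 against hCO2 in Col0, and from 7 to 10 for LD2 against SD2 in cat2. For SD4 against SD2 in cat2 it was 0 to 2 and for LD4 against LD2 in cat2 0 to 1. For the air interactions it was 2 to 5 at SD2 and 0 to 2 at SD4, and for the day-length interaction at day 4 it was 0 to 2. The cause of these moves was not tested, except where fewer arrays or probe sets were fitted.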
